A study of Rattus norvegicus with 12 samples.

Results

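The genes of cholesterol and fatty acid synthesis were followed in rat spinal cord tissue of the lumbar segments L3 to L5 after spinal cord injury (SCI). They were a list of 32 genes chosen by name, of which 31 were matched by symbol among the 23526 genes of the expression table. All 31 had enough counts to be among the 18714 genes tested. They comprised 17 enzymes of cholesterol synthesis, 8 enzymes of fatty acid synthesis and 6 regulators of both branches. Fdps, the farnesyl diphosphate synthase, was not matched by its symbol and was not analysed as a member. RNA of whole tissue had been sequenced in 4 groups of 3 libraries: sham tissue labelled day 0, and tissue at day 3, day 7 and day 14 after SCI. The labels state neither the strain, age and sex of the rats, nor where and how the cord was injured, nor whether each library is a rat of its own. P-values therefore cover the spread between these libraries alone, and that spread may be technical. The sham group was not matched in time to the later days. In whole tissue, fewer cells of a type and less RNA per cell cannot be told apart.

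Cholesterol is built from acetyl-CoA through mevalonate, farnesyl diphosphate and squalene, and fatty acids are built from acetyl-CoA by a carboxylase and a synthase, then elongated and desaturated. Genes of both branches are transcribed under the sterol regulatory element binding proteins (SREBPs): the product of Srebf2 acts mainly on the cholesterol branch, and that of Srebf1 acts more on the fatty acid branch and is also a target of the oxysterol-sensing liver X receptors. When membranes are rich in sterol, Insig proteins hold the escort protein SCAP and its SREBP cargo in the endoplasmic reticulum, and the target genes are transcribed less. The spinal cord makes its own cholesterol, much of which lies in the myelin of oligodendrocytes.

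SREBPs act on promoters together with NF-Y, which binds the CCAAT box, and with SP1, which binds the GC box. Promoter windows of 300 bases around a gene's start were found in the RefSeq tables (build GRCr8) for 24 of the 31 genes, with a pair of starts for Srebf1. CCAAT was found on either strand in the windows of 18 of the 24 genes, against 37.5% of all 33469 windows. GGGCGG, the GC box, was found on either strand in those of 20 of the 24 genes, against 33.1% of all windows. A sterol regulatory element, searched as TCACNCCAC on both strands, was found in 0 of the 24, against 1.12% of all windows. These matches describe letters in a window and are not binding sites. The search for this form of the sterol regulatory element in 300 bases cannot show that such an element is absent. The windows of Hmgcs1, which opens the mevalonate route, of Insig1 and of the SREBP genes are shown, because Srebf1 parted from the other 3 genes at day 14. Capitals mark CCAAT and GGGCGG or their reverse complements, and no match overlaps another.
Hmgcs1, chr2:53382054-53382353, plus strand: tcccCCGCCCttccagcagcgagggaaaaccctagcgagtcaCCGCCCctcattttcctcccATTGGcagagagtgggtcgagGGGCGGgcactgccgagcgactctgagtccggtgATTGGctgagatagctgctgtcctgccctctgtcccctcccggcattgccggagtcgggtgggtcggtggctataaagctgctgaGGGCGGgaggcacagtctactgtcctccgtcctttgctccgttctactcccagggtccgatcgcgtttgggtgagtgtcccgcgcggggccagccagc
Insig1, chr4:8057720-8058019, minus strand: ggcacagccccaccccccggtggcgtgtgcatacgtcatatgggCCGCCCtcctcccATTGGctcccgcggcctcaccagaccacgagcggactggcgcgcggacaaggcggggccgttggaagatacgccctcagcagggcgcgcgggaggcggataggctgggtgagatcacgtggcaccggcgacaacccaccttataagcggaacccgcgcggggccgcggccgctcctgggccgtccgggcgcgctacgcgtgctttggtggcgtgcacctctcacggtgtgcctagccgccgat
Srebf2, chr7:115543057-115543356, plus strand: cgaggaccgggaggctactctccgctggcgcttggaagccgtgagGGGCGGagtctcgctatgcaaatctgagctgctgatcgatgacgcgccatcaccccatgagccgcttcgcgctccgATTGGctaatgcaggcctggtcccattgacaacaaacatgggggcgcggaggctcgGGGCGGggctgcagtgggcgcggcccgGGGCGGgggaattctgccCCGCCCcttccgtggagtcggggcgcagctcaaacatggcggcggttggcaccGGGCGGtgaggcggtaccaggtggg
Srebf1 upstream start, chr10:45529115-45529414, minus strand: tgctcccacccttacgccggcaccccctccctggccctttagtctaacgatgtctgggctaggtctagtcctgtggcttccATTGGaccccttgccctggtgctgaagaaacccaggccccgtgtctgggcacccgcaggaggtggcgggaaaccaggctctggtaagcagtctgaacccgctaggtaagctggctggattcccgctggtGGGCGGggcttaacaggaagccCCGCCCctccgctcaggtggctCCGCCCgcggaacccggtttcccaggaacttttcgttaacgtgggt
Srebf1 downstream start, chr10:45518961-45519260, minus strand: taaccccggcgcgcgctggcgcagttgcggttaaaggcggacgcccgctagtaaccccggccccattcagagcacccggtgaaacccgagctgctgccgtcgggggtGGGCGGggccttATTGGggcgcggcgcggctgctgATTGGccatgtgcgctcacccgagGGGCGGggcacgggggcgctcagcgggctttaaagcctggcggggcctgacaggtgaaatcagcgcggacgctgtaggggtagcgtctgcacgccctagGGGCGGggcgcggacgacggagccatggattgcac
The Hmgcs1 window held 2 CCAAT boxes and 4 GC boxes, and the Srebf2 window held 1 and 5. The Insig1 window held 1 of each. The Srebf1 windows held 1 CCAAT box and 3 GC boxes at the upstream start, and 2 and 3 at the downstream start. The table counts reads per gene, so the transcripts from both starts of Srebf1 are summed in it.

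Library totals ran from 63010295 to 79072710 counts, and some libraries stood apart from their group. Set against the sham mean, neuron markers (12 genes) differed by -3.35 and -3.98 log2 units in replicates 1 and 3 of SCI day 3. Sensory ganglion neuron markers (9 genes) exceeded the sham mean by 3.13 log2 units in SCI day 3 replicate 2 and by 4.51 and 5.24 in SCI day 14 replicates 1 and 2. Microglia and macrophage markers (12 genes) differed from it by 0.19 in replicate 1 of SCI day 14, but by 2.74 and 2.43 in the other libraries of that day. Skeletal muscle markers (9 genes) stood at 5.06 in SCI day 7 replicate 2 and erythrocyte markers at 4.48 in SCI day 7 replicate 1, both the highest of the 12 libraries, and Schwann cell markers at 1.51 in sham replicate 2. The share of counts from mitochondrial genes ran from 5.43% to 10.8% over the 12 libraries and was lowest in replicates 1 and 3 of SCI day 3, at 5.62% and 5.43%. Results that turn on these libraries are given with and without them.

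Transcripts of both branches had lower means after injury in almost every gene, while 0 of the 31 genes passed the test on any day. The log2 fold change lay below 0 for 29 of 31 genes at day 3, for all 31 at day 7 and for 30 at day 14. The exceptions were Msmo1 and Ebp at day 3 and Srebf1 at day 14. The median over the 31 genes was -0.39 at day 3, -0.63 at day 7 and -0.68 at day 14, where the median of all genes tested was 0.03, -0.02 and 0.01. Among all genes tested, 48.1%, 52.6% and 48.8% had a log2 fold change below 0 on these days. The 3 comparisons share the sham libraries, so their directions are not independent of each other.

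Calls were made by edgeR's quasi-likelihood test at a Benjamini-Hochberg adjusted p under 0.05. At day 3 it called 0 of 31 genes, against 6.70% of all genes tested. At days 7 and 14 it also called 0 of 31, against 0.0160% of all genes on each day. At an unadjusted p under 0.05, 7 of 31 genes were lower at day 3 (22.6%), against 14.6% of all genes. By the same measure 14 of 31 were lower at day 7 (45.2%), against 2.13% of all genes, and 15 of 31 at day 14 (48.4%), against 0.967%. None of the 31 was higher at that level on any day. DESeq2 and limma voom with sample weights each called 6 of the 31 genes at day 3, all lower, where they called 30.7% and 33.3% of all genes tested, and both called 0 at days 7 and 14. Without SCI day 3 replicate 2 the edgeR test called 7 of the 31 genes at day 3, where it called 37.1% of all genes. Without the 3 libraries high in sensory ganglion markers it called 12 of the 31, against 34.7% of all genes, and without the 2 day 3 libraries low in neuron markers it called 0, against 0.00508% of all genes.

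The libraries of an SCI day lay wholly below the sham libraries for 14 of 31 genes at day 3, against 18.3% of all genes tested. At day 7 this held for 26 of 31 genes, against 10.8% of all genes, and at day 14 for 12 of 31, against 6.28%. The count at day 14 was 25 without SCI day 14 replicate 1, against 16.2% of all genes, and 19 without sham replicate 3, against 8.27%. Counted by library, 30, 29 and 29 of the 31 genes lay below every sham library in SCI day 7 replicates 1, 2 and 3, as 22.0%, 35.6% and 33.0% of all genes did. In SCI day 14 replicates 1, 2 and 3 the counts were 12, 25 and 29, beside 20.8%, 34.2% and 26.3% of all genes. In SCI day 3 replicates 1, 2 and 3 they were 28, 16 and 21, beside 38.0%, 28.9% and 38.9% of all genes. The day 7 libraries were the most alike of the injured groups, and SCI day 14 replicate 1 stood nearest to sham.

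**Figure D1:**
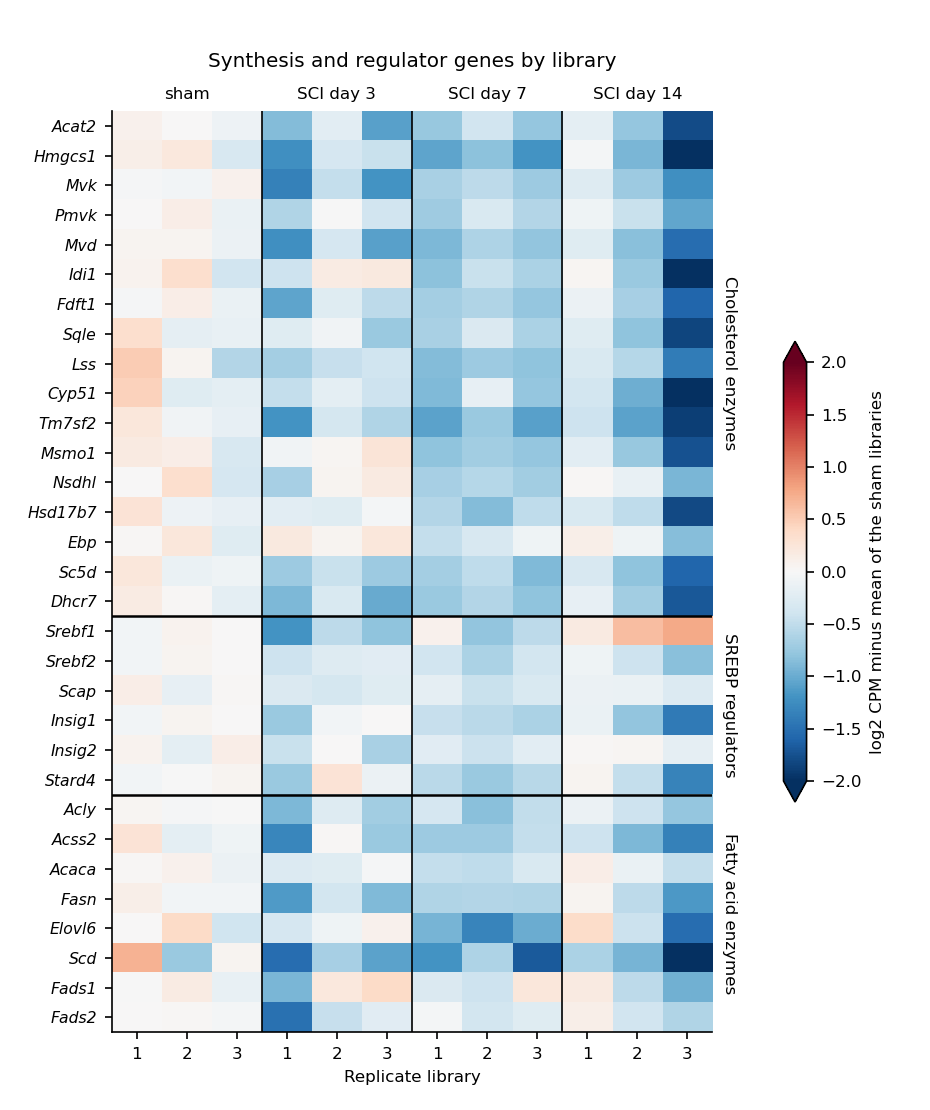
Log2 CPM (counts scaled to the TMM-adjusted library total) of the 31 genes in each of the 12 libraries, as the difference from the mean of the 3 sham libraries. Rows are genes by branch, columns are replicate libraries and blue is lower; SCI day 14 replicate 3 holds the lowest value, -2.99 for Scd, and Srebf1 is above the sham mean in all 3 SCI day 14 libraries.

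In the mevalonate arm 6 enzymes were measured, and each lay below every sham library at day 7. Their median log2 fold change was -0.65 at day 3, -0.64 at day 7 and -0.75 at day 14. Hmgcs1 (ENSRNOG00000016552, chromosome 2), which makes HMG-CoA and had the highest level per length of the 31 genes, measured 1216, 1297 and 901 CPM in sham, 479.5, 891 and 831 CPM at SCI day 3, 538, 636 and 488 CPM at day 7, and 1095, 599 and 251 CPM at day 14. Every day 3 and day 7 library was below every sham library, while day 14 ran from a value inside the sham range to the lowest of the 12 libraries. Hmgcs1 had a log2 fold change of -0.63 ± 0.439 (SE) at day 3, -1.04 ± 0.442 at day 7 and -0.81 ± 0.440 at day 14 (edgeR adjusted p = 0.316, 0.482 and 0.758).

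Mvk (ENSRNOG00000049604, chromosome 12), the mevalonate kinase, had the smallest p of the 31 genes at day 3. It measured 25.5, 46.9 and 28.4 CPM at SCI day 3, against 63.7, 63.0 and 69.0 CPM in sham, with no overlap. The log2 fold change was -0.96 ± 0.263 (SE; edgeR adjusted p = 0.0534). When only genes with 1 CPM throughout a group were tested, a setting whose share of all genes called is not given here, Mvk was called. It measured 41.6, 45.0 and 39.4 CPM at SCI day 7 and 54.5, 39.4 and 28.0 CPM at day 14, again below every sham library. Mvd, the decarboxylase that yields isopentenyl diphosphate, averaged 62.7 ± 4.29 CPM in sham, 35.3 ± 12.3 CPM at SCI day 3, 36.8 ± 3.59 CPM at day 7 and 36.5 ± 15.6 CPM at day 14 (SD, n = 3 each). Its means on the injured days were nearly equal, and its log2 fold change was -0.83 ± 0.305 (SE; edgeR adjusted p = 0.0932) at day 3.

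The remaining enzymes of the arm spanned a wide range at day 3. Acat2, a thiolase, had the log2 fold changes -0.67, -0.63 and -0.79 on days 3, 7 and 14, and Pmvk, the phosphomevalonate kinase, -0.31, -0.53 and -0.48. Idi1, the isomerase of isopentenyl diphosphate, measured 85.5, 129 and 131 CPM at SCI day 3, against 119.5, 143 and 86.8 CPM in sham, with overlap. Its log2 fold change was -0.02 ± 0.416 (SE; edgeR adjusted p = 0.982) at day 3 and -0.65 ± 0.417 (edgeR adjusted p = 0.662) at day 7. At day 7 Idi1 measured 64.8, 84.1 and 73.4 CPM, below every sham library. Acat2, Mvk and Mvd lay below every sham library on all 3 injured days.

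From squalene onward 11 enzymes were measured, with a median log2 fold change of -0.39 at day 3, -0.69 at day 7 and -0.76 at day 14. Of these, 4, 9 and 5 lay below every sham library on those days. Sqle, the squalene epoxidase and a rate-limiting step of the branch, measured 264, 184 and 188 CPM in sham, 177, 199 and 124 CPM at SCI day 3, 133, 171 and 134 CPM at day 7, and 176, 119 and 58.8 CPM at day 14. Days 7 and 14 lay below sham without overlap, and SCI day 3 replicate 2 lay inside the sham range. Its log2 fold change was -0.54 ± 0.343 (SE) at day 7 and -0.85 ± 0.345 at day 14 (edgeR adjusted p = 0.663 and 0.638). Lss, the lanosterol synthase, had unlike sham libraries of 262, 193 and 124 CPM, and its day 7 libraries of 101, 111 and 106 CPM lay below all 3. Fdft1, the squalene synthase, had the log2 fold changes -0.57, -0.69 and -0.67 on days 3, 7 and 14.

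Cyp51 (ENSRNOG00000007234, chromosome 4), the lanosterol demethylase, measured 706, 432 and 448 CPM in sham, 370.4, 452 and 384 CPM at SCI day 3, 278, 461 and 300.4 CPM at day 7, and 402, 261 and 109.7 CPM at day 14. The day 14 libraries were all below sham, while days 3 and 7 each overlapped with sham through their replicate 2. At day 14 Cyp51 had the lowest log2 fold change of the 17 cholesterol enzymes, -1.04 ± 0.405 (SE; edgeR adjusted p = 0.629). Tm7sf2, a sterol reductase, was next at -1.01 ± 0.331 (SE; edgeR adjusted p = 0.594). It measured 59.4, 48.3 and 45.1 CPM in sham, 22.2, 39.6 and 33.3 CPM at SCI day 3, 24.1, 30.0 and 23.8 CPM at day 7, and 37.9, 24.0 and 13.7 CPM at day 14. No injured library reached the sham range of Tm7sf2.

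Sc5d (ENSRNOG00000065944, chromosome 8), the sterol desaturase, had the smallest p of the 31 genes at day 14. It measured 188, 146 and 153 CPM in sham, 97.9, 119 and 97.2 CPM at SCI day 3, 101, 113 and 87.1 CPM at day 7, and 129, 92.1 and 53.6 CPM at day 14. No injured library overlapped with sham, and the log2 fold change was -0.63 ± 0.268 (SE), -0.69 ± 0.269 and -0.83 ± 0.269 on days 3, 7 and 14 (edgeR adjusted p = 0.125, 0.434 and 0.594). Dhcr7, the reductase of the last step, averaged 63.0 ± 8.23 CPM in sham, 38.4 ± 10.6 CPM at SCI day 3, 38.4 ± 3.27 CPM at day 7 and 37.8 ± 18.2 CPM at day 14 (SD, n = 3 each). SCI day 14 replicate 1, at 55.6 CPM, was the only injured library inside the Dhcr7 sham range of 54.4 to 70.7 CPM.

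Msmo1, Nsdhl, Hsd17b7 and Ebp, which act on the sterol rings after Cyp51, had the smallest differences of this stretch at day 3. Msmo1, the methyl oxidase, measured 321, 314 and 228 CPM in sham, 271, 293 and 337 CPM at SCI day 3, 162, 175 and 165 CPM at day 7, and 246, 168 and 85.3 CPM at day 14. Its day 3 libraries overlapped with sham, and its day 7 libraries lay below both sham and day 3. The log2 fold change of Msmo1 was 0.06 ± 0.307 (SE; edgeR adjusted p = 0.904) at day 3 and -0.78 ± 0.309 (edgeR adjusted p = 0.442) at day 7. Ebp, the sterol isomerase, had the highest log2 fold change of the branch on each day, 0.15, -0.30 and -0.23. Nsdhl, the dehydrogenase, had -0.12, -0.66 and -0.32, and Hsd17b7, the ketosteroid reductase and the lowest of the 31 genes per length in sham, had -0.18, -0.66 and -0.75. At day 7 the cholesterol enzymes other than Cyp51 and Ebp all lay below every sham library, which is 15 of 17.

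**Figure D2:**
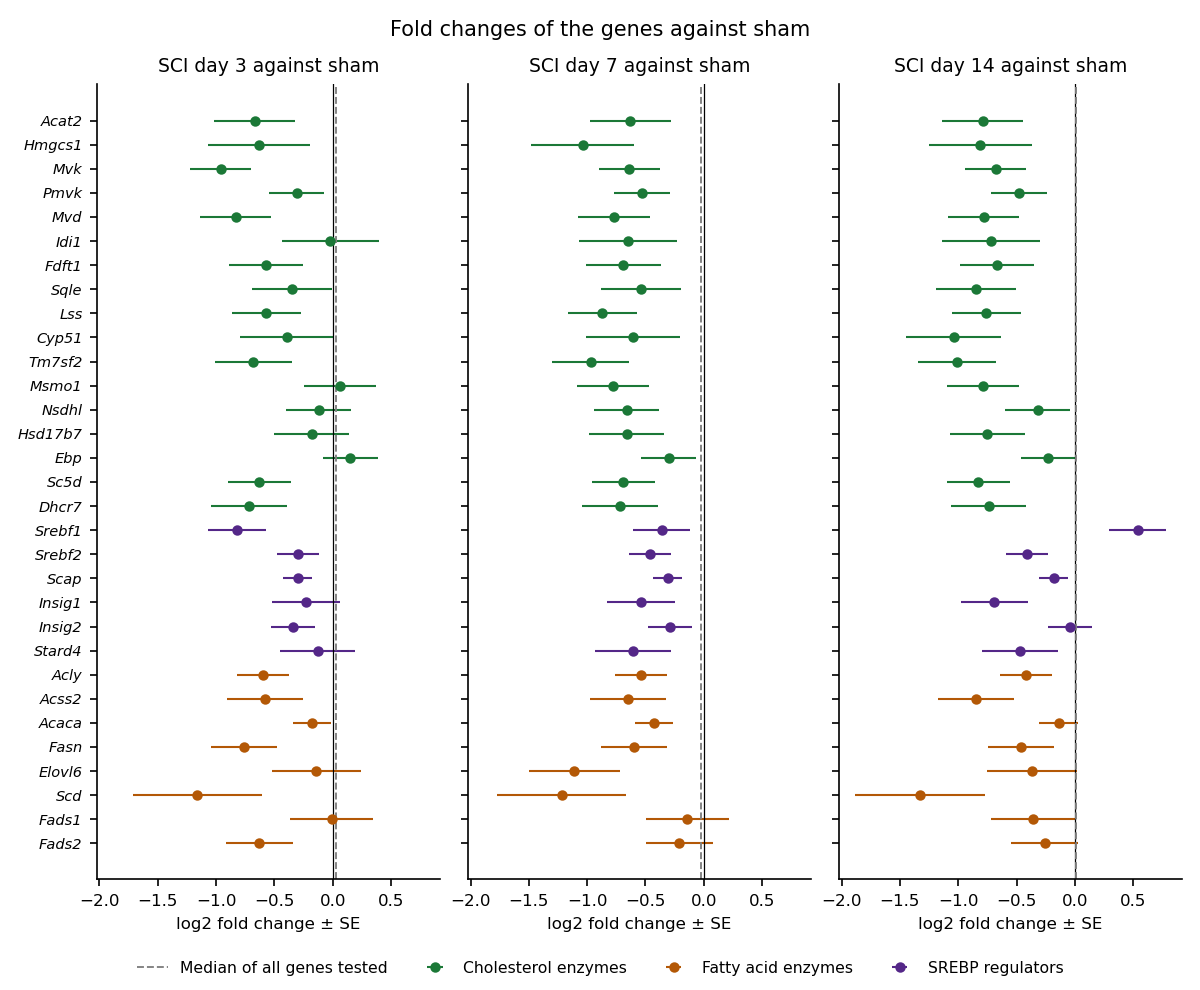
Log2 fold changes of the 31 genes at SCI day 3, day 7 and day 14 against sham (points, with bars for the SE from edgeR; colours are branches, and the dashed line is the median of all genes tested). All 31 points lie left of 0 at day 7, 29 do at day 3 and 30 at day 14, where Srebf1 stands at 0.54.

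Of the 8 fatty acid enzymes 0 passed the test, and all 8 had a log2 fold change below 0 on each day. Fasn (ENSRNOG00000045636, chromosome 10), the fatty acid synthase, measured 789.5, 706 and 708 CPM in sham, 336, 570.1 and 397 CPM at SCI day 3, 484, 488 and 484 CPM at day 7, and 761, 507 and 331 CPM at day 14. The day 3 and day 7 libraries lay below sham, the day 7 libraries nearly equal, and SCI day 14 replicate 1 lay inside the sham range. Fasn had log2 fold changes of -0.76 ± 0.283 (SE), -0.60 ± 0.283 and -0.46 ± 0.282 on days 3, 7 and 14 (edgeR adjusted p = 0.0962, 0.528 and 0.812). Acly, the citrate lyase that supplies cytosolic acetyl-CoA to both branches, measured 595, 569 and 574 CPM in sham, 309.5, 484 and 356 CPM at SCI day 3, 460.1, 324 and 411 CPM at day 7, and 532, 433 and 337 CPM at day 14. No injured library reached the sham range of Acly, and the log2 fold change was -0.60 ± 0.222 (SE; edgeR adjusted p = 0.0951) at day 3. Both DESeq2 and limma voom called Acly and Fasn at day 3. Acss2, which makes acetyl-CoA from acetate, had the log2 fold changes -0.58, -0.65 and -0.85 on days 3, 7 and 14, and its day 7 and day 14 libraries lay below sham.

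Scd (ENSRNOG00000013552, chromosome 1), a stearoyl-CoA desaturase, had the lowest log2 fold change of the 31 genes on every day. It measured 272, 100.2 and 175 CPM in sham, 58.3, 106 and 80.1 CPM at SCI day 3, 73.7, 109.7 and 52.5 CPM at day 7, and 108, 88.4 and 21.1 CPM at day 14. Each day overlapped with sham, because sham replicate 2 was itself low. Scd had log2 fold changes of -1.16 ± 0.555 (SE), -1.22 ± 0.555 and -1.33 ± 0.557 on days 3, 7 and 14 (edgeR adjusted p = 0.159, 0.510 and 0.643). Its close relative Scd2 averaged 8247 ± 176 CPM in sham, 6395 ± 2487 CPM at SCI day 3, 5449.6 ± 273 CPM at day 7 and 6632 ± 1342 CPM at day 14 (SD, n = 3 each). The treatment of reads that match both genes is not stated, so the level of Scd is uncertain.

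Elovl6, the elongase that takes palmitate to stearate, measured 43.6, 56.5 and 32.9 CPM in sham, 34.3, 40.6 and 45.9 CPM at SCI day 3, 22.7, 17.3 and 21.8 CPM at day 7, and 55.8, 32.0 and 14.9 CPM at day 14. Its day 3 libraries lay inside the sham range, its day 7 libraries below it, and its day 14 libraries reached from near the top of that range to below it. Elovl6 had log2 fold changes of -0.14, -1.11 and -0.37 on days 3, 7 and 14 (edgeR adjusted p = 0.819, 0.393 and 0.898). Acaca, the carboxylase that commits acetyl-CoA to fatty acids, measured 161, 157 and 179 CPM at SCI day 7, against 228, 236 and 206 CPM in sham, with no overlap (log2 fold change -0.43 ± 0.164, SE; edgeR adjusted p = 0.424). On days 3 and 14 Acaca overlapped with sham, with log2 fold changes of -0.18 and -0.14.

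The desaturases of polyunsaturated fatty acids had the differences nearest to 0 of the 31 genes at day 7, -0.14 for Fads1 and -0.21 for Fads2 on the log2 scale. Fads1 measured 102, 222 and 250.4 CPM at SCI day 3, against 190.4, 215 and 173 CPM in sham, so that day 3 lay on both sides of sham. Fads2 measured 34.0, 69.8 and 82.3 CPM at SCI day 3, against 96.5, 97.8 and 93.6 CPM in sham, with no overlap (log2 fold change -0.63 ± 0.287, SE; edgeR adjusted p = 0.144). In the table's coordinates Fads2 overlaps Fth1 on the opposite strand, which held 4669953 counts over the 12 libraries, against 67593 for Fads2. Acly likewise overlaps Eif1 and Fkbp10. The use of strand in counting is not stated, so reads of these neighbours cannot be told apart from those of Fads2 and Acly.

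Among the 6 regulators, the SREBP genes differed in direction at day 14. Srebf2 (ENSRNOG00000007400, chromosome 7) measured 229, 248 and 241 CPM in sham, 180.2, 199.5 and 204 CPM at SCI day 3, 184, 154 and 185 CPM at day 7, and 227, 179.8 and 134 CPM at day 14. All 9 injured libraries lay below the 3 sham libraries. Its log2 fold change was -0.30 ± 0.180 (SE), -0.46 ± 0.181 and -0.41 ± 0.180 on days 3, 7 and 14 (edgeR adjusted p = 0.252, 0.442 and 0.670). Srebf1 (ENSRNOG00000003463, chromosome 10) measured 88.5, 96.7 and 92.2 CPM in sham, 40.4, 63.8 and 52.7 CPM at SCI day 3, 97.6, 53.5 and 64.3 CPM at day 7, and 105, 141 and 157 CPM at day 14. It lay below every sham library at day 3, overlapped with sham at day 7 and lay above every sham library at day 14. Srebf1 had log2 fold changes of -0.82 ± 0.246 (SE), -0.36 ± 0.245 and 0.54 ± 0.245 on days 3, 7 and 14 (edgeR adjusted p = 0.0626, 0.678 and 0.678). It was the 1 gene of the 31 above every sham library at day 14, as 9.37% of all genes tested were.

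Per length, the ratio of Srebf1 to Srebf2 in the authors' FPKM (fragments scaled by gene length and library total) was 0.436, 0.441 and 0.432 in sham, 0.253, 0.361 and 0.292 at SCI day 3, 0.599, 0.392 and 0.393 at day 7, and 0.522, 0.886 and 1.32 at day 14. The sham libraries were nearly equal, the day 3 libraries all lay below them and the day 14 libraries all above. SCI day 14 replicate 3 was the only library in which Srebf1 exceeded Srebf2 per length, and it held the lowest level of the cholesterol enzymes. In the table's coordinates Srebf1 overlaps Rai1 on the opposite strand by 596 bases.

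Insig1 (ENSRNOG00000006859, chromosome 4), which retains SCAP and is itself an SREBP target, measured 227, 247 and 237 CPM in sham, 141, 229.6 and 238 CPM at SCI day 3, 173, 163 and 152 CPM at day 7, and 215, 137 and 89.2 CPM at day 14. Its day 7 and day 14 libraries lay below sham, and day 3 overlapped with sham in replicates 2 and 3. The log2 fold change of Insig1 was -0.54 ± 0.290 (SE) at day 7 and -0.69 ± 0.290 at day 14 (edgeR adjusted p = 0.591 and 0.647). Insig2, its relative, had log2 fold changes of -0.34, -0.29 and -0.04 on days 3, 7 and 14. Stard4, a carrier of cholesterol between membranes, measured 21.6, 18.8 and 21.4 CPM at SCI day 7, against 30.4, 31.3 and 32.8 CPM in sham, with no overlap. Scap had the smallest standard errors of the 31 genes and log2 fold changes of -0.30, -0.31 and -0.18 on days 3, 7 and 14.

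**Figure D3:**
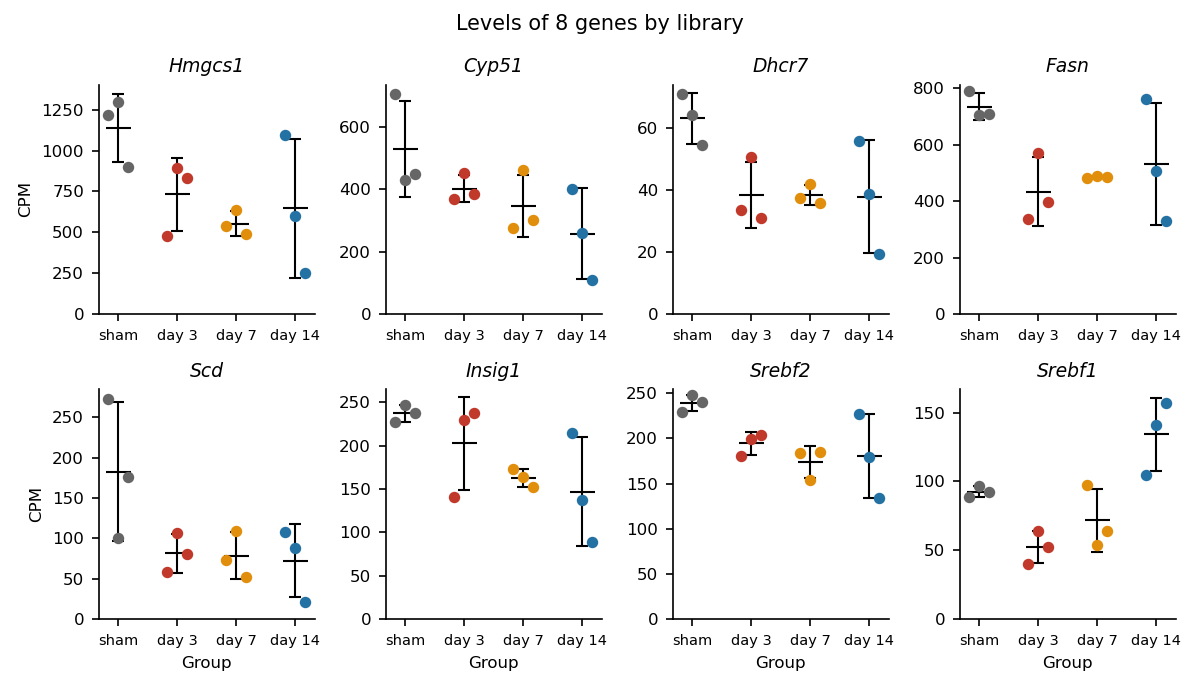
CPM of 8 genes in each library by group (points; the lines are the mean ± SD, n = 3, and each y axis starts at 0). Hmgcs1, Cyp51, Dhcr7, Fasn, Scd, Insig1 and Srebf2 have lower means on each SCI day than in sham, while Srebf1 measured 105 to 157 CPM at day 14, above the sham libraries.

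The branches were compared library by library, as the mean over the genes of a branch of log2 CPM minus the sham mean. For the cholesterol enzymes this mean was -0.69, -0.20 and -0.46 in replicates 1, 2 and 3 of SCI day 3, -0.76, -0.54 and -0.74 at day 7, and -0.18, -0.68 and -1.61 at day 14. The fatty acid enzymes stood at -0.99, -0.23 and -0.40 at day 3, at -0.57, -0.67 and -0.57 at day 7, and at -0.04, -0.53 and -1.23 at day 14. In both branches SCI day 3 replicate 1 was the lowest of its day and SCI day 14 replicate 3 the lowest of all 12 libraries. The group means were -0.45 ± 0.25, -0.68 ± 0.12 and -0.82 ± 0.72 for the cholesterol enzymes and -0.54 ± 0.40, -0.61 ± 0.06 and -0.60 ± 0.60 for the fatty acid enzymes on days 3, 7 and 14 (SD, n = 3 each).

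The difference between branches, cholesterol minus fatty acid, was 0.01, 0.10 and -0.11 in the sham replicates, 0.30, 0.04 and -0.06 at SCI day 3, -0.19, 0.13 and -0.17 at day 7, and -0.14, -0.15 and -0.38 at day 14. At days 3 and 7 it fell on both sides of 0, and its means of 0.09 and -0.07 were smaller than their SDs of 0.19 and 0.18. At day 14 the cholesterol enzymes were the lower branch in all 3 libraries, with a mean difference of -0.22 ± 0.14 (SD, n = 3), below every sham library. With the median over the genes of a branch in place of the mean, the difference at day 14 was -0.40. The difference between branches was described and not tested. At an unadjusted p under 0.05, 14.6%, 2.13% and 0.967% of all genes tested were lower on days 3, 7 and 14. At that level 3, 9 and 11 of the 17 cholesterol enzymes were lower on those days. So were 2, 3 and 2 of the 8 fatty acid enzymes, and 2, 2 and 2 of the 6 regulators. Their median log2 fold changes were -0.57, -0.66 and -0.76 for the cholesterol enzymes, -0.59, -0.57 and -0.39 for the fatty acid enzymes, and -0.30, -0.41 and -0.29 for the regulators.

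**Figure D4:**
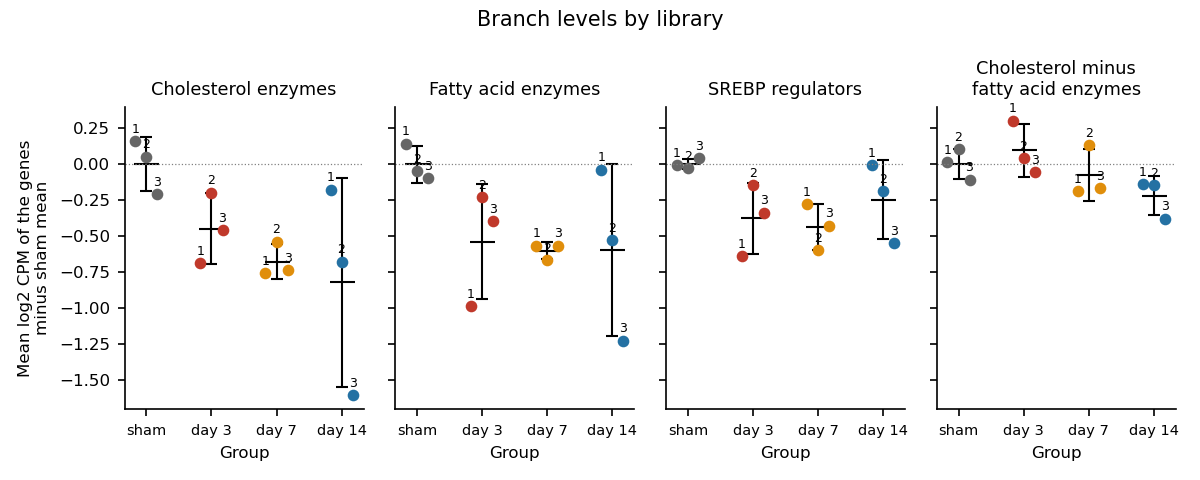
Mean log2 CPM of each branch in each library, minus the mean of the 3 sham libraries, and the difference between the branches (points are libraries numbered by replicate; the lines are the mean ± SD, n = 3). The SCI day 14 libraries spread from -0.18 to -1.61 in the cholesterol branch, and the difference between branches lies between -0.14 and -0.38 in them.

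Compared between days, 0 of the 31 genes passed the test in any of the 3 comparisons, which called 0% of all genes tested. At an unadjusted p under 0.05, 2 genes differed at day 7 against day 3, 1 at day 14 against day 7 and 2 at day 14 against day 3, beside 14.8%, 3.67% and 17.9% of all genes. Msmo1 measured 167 ± 6.48 CPM at day 7, against 300.3 ± 33.9 CPM at day 3 (SD, n = 3 each; a log2 difference of -0.84 ± 0.310, SE; edgeR adjusted p = 0.323), and Elovl6 was the other gene of that comparison, at -0.97 ± 0.388 (SE; edgeR adjusted p = 0.324). Srebf1 averaged 134 ± 26.7 CPM at day 14, against 52.3 ± 11.7 CPM at day 3 (SD, n = 3 each; a log2 difference of 1.36 ± 0.249, SE; edgeR adjusted p = 0.188), with no overlap. At day 14 against day 7 it had a log2 fold change of 0.90 ± 0.246 (SE; edgeR adjusted p = 1). DESeq2 called 1 of the 31 genes between days, Srebf1 at day 14 against day 3, where it called 6.68% of all genes, and edgeR called the same gene there without SCI day 3 replicate 2, against 22.8% of all genes. Without the 3 libraries high in sensory ganglion markers, which leaves 1 library at day 14 that is assumed to vary like the others, edgeR called 3 of 31 genes at day 7 against day 3, where it called 16.5% of all genes: Mvk was higher, and Msmo1 and Elovl6 were lower. The day 14 library left in that setting is replicate 3. It held the lowest branch means of all 12 libraries, -1.61 for the cholesterol enzymes and -1.23 for the fatty acid enzymes. Comparisons with day 14 in that setting rest on this library alone, so their calls are not counted here. At day 7 against day 3, 7 of 31 genes were lower without overlap, against 7.69% of all genes, namely Idi1, Lss, Msmo1, Hsd17b7, Ebp, Acaca and Elovl6. At day 14 against day 7, Srebf1 and Insig2 were higher without overlap, 2 of 31, against 5.40% of all genes. At day 14 against day 3, Msmo1 and Hsd17b7 were lower without overlap, 2 of 31, against 9.43%, and Srebf1 was higher, 1 of 31, against 7.02%.

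The levels of cell type markers in the same libraries were set beside those of the branches, and their part in these results was not tested. Mature oligodendrocyte markers (15 of 15 detected) summed to 36143 to 74881 CPM in sham, 32259 to 42362 CPM at SCI day 3, 32022 to 47892 CPM at day 7 and 32014 to 42946 CPM at day 14, with overlap on each day. Of these markers 5 of 15 were called lower at day 3, where 224 of all 18714 genes tested were called lower. At days 7 and 14, 0 of these markers were called, against 0.0160% of all genes on each day. On the log2 scale they averaged -0.80, -0.82 and -1.41 at day 3, -0.23, -0.20 and -0.80 at day 7, and -0.54, -0.24 and -0.52 at day 14. SCI day 14 replicates 1 and 3 stood at -0.18 and -1.61 in the cholesterol branch and at -0.54 and -0.52 in the mean of these markers. Single markers moved both ways between these libraries: Ugt8 measured 858 and 330 CPM, and Mobp 2315 and 4655 CPM. Astrocyte markers (9 of 9) averaged -1.59, -0.58 and -2.12 at day 3 and lay between -0.32 and 0.33 at days 7 and 14. At day 3, 4 of 9 were called lower, against 224 of all 18714 genes tested. Endothelial markers (7 of 8 detected) averaged 1.91, 0.55 and 1.87 at day 3, where 4 of 7 were called higher, against 1030 of all 18714 genes tested. They lay between 0.27 and 0.84 at days 7 and 14, where 0 were called, against 0.0160% of all genes on each day. They summed to 192 to 243 CPM in sham, 339 to 841 CPM at SCI day 3, 311 to 415 CPM at day 7 and 267 to 279 CPM at day 14, and no injured library reached down to the sham range.

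Microglia and macrophage markers (12 of 12 detected) summed to 290.5 to 399 CPM in sham, 460.3 to 1736 CPM at SCI day 3, 1093 to 1917 CPM at day 7 and 374 to 1819 CPM at day 14. SCI day 14 replicate 1 was the injured library inside the sham range of this sum, and it was also the injured library in which the fewest of the 31 genes, 12, lay below sham. Within day 14, replicates 2 and 3 stood at 2.74 and 2.43 in microglial markers and at -0.68 and -1.61 in the cholesterol branch. A link between these levels was not tested. Schwann cell markers (10 of 10) lay between -1.39 and 2.72 after injury and between -0.80 and 1.51 in sham. Of the adipocyte markers 7 of 13 were tested and 0 were called on any day, against 6.70% of all genes at day 3 and 0.0160% at days 7 and 14. Their median log2 fold change was 0.71 at day 3, 0.59 at day 7 and 0.06 at day 14. Gpd1, which links glycolysis to triglyceride synthesis, measured 466, 260 and 454 CPM in sham, 1284, 546 and 191 CPM at SCI day 3, 592, 548 and 690 CPM at day 7, and 174, 352 and 758 CPM at day 14. Lipe, the hormone-sensitive lipase, measured 107.7, 58.4 and 72.0 CPM at SCI day 3, against 47.7, 42.7 and 48.7 CPM in sham, with no overlap. Fabp4, a fatty acid binding protein, measured 4.77, 0.604 and 0.863 CPM at SCI day 3, against 0.0619, 0 and 0.138 CPM in sham, also with no overlap. Plin1 and Plin4 went the other way. Plin4 measured 1.80, 3.27 and 1.16 CPM at SCI day 3, against 11.4, 4.36 and 12.6 CPM in sham. Plin1 measured 0, 0.184 and 0.148 CPM, against 0.387, 0.384 and 0.829 CPM. Of the 7 tested, 3 lay above and 2 below every sham library at day 3, against 3559 and 3425 of all 18714 genes tested. The markers of the list summed to 308 to 528 CPM in sham, 266.5 to 1401 CPM at SCI day 3, 633 to 755 CPM at day 7 and 224 to 816 CPM at day 14. Gpd1 held most of this sum in every library. Adipoq was at 0 in 7 libraries and at 0.105 CPM or less in the others, and Lep, Ucp1 and Pck1 were each at 0 in 10.

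**Figure D5:**
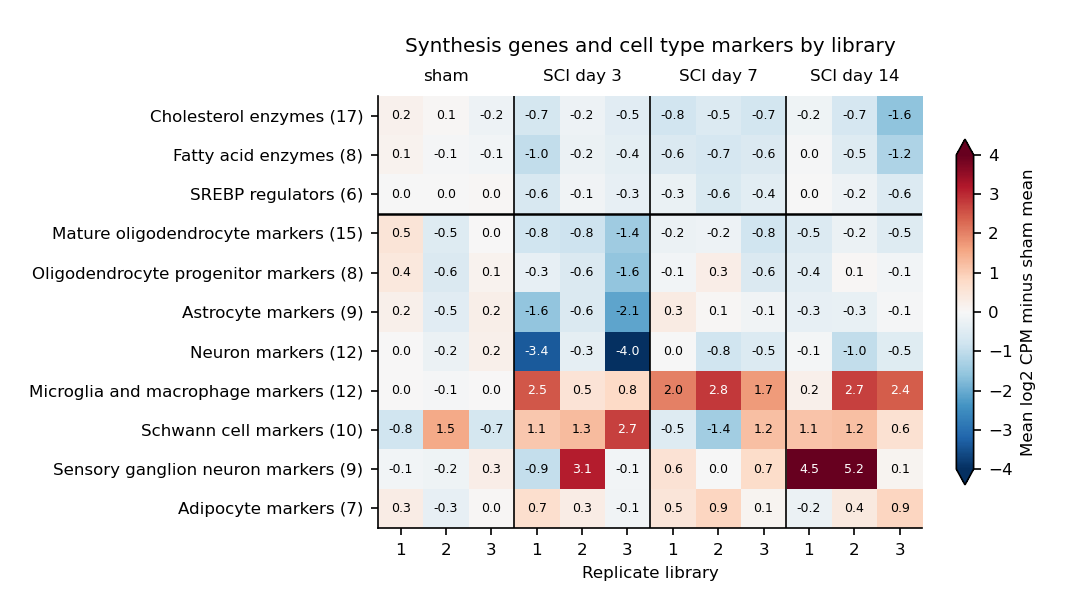
Mean log2 CPM of each branch and of each cell type marker list in each library, minus the mean of the 3 sham libraries (colour and printed value; the number of genes is in brackets). Microglia and macrophage markers stand at 0.19 in SCI day 14 replicate 1 and at 2.74 and 2.43 in replicates 2 and 3; neuron markers stand at -3.35 and -3.98 in SCI day 3 replicates 1 and 3.

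Other genes of these pathways were read from 3 further lists. Of 24 other genes of fatty acid metabolism, 2 were called lower at day 3, where 224 of all 18714 genes tested were called lower. At days 7 and 14, 0 were called, against 0.0160% of all genes on each day. Acacb, the mitochondrial acetyl-CoA carboxylase that restrains fatty acid oxidation, measured 26.7, 34.9 and 28.9 CPM in sham, 6.11, 10.3 and 11.7 CPM at SCI day 3, 22.7, 13.8 and 11.5 CPM at day 7, and 27.5, 27.6 and 42.6 CPM at day 14. Its log2 fold change was -1.68 ± 0.319 (SE; edgeR adjusted p = 0.0337) at day 3, with no overlap, and 0.11 at day 14. Thrsp, a lipogenic regulator, measured 1.56, 1.76 and 0.322 CPM at SCI day 3, against 28.5, 2.47 and 12.9 CPM in sham (log2 fold change -3.59 ± 0.826, SE; edgeR adjusted p = 0.0391), with sham libraries that differed widely. The list's median was -0.40, -0.28 and -0.25 on days 3, 7 and 14. Elovl1, an elongase of very long chains, had the smallest p of the list at day 7, with a log2 fold change of -0.57 ± 0.169 (SE; edgeR adjusted p = 0.315).

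Of 12 other genes of sterol synthesis and use, 0 were called, against 6.70% of all genes at day 3 and 0.0160% at days 7 and 14. The median was -0.25, -0.29 and -0.22 on days 3, 7 and 14. Cyp46a1, the neuronal cholesterol hydroxylase, averaged 18.2 ± 12.8 CPM at SCI day 3, against 48.1 ± 5.76 CPM in sham (SD, n = 3 each; a log2 difference of -1.40 ± 0.436, SE; edgeR adjusted p = 0.0667), beside neuron markers at -3.35, -0.35 and -3.98 in the same libraries, whose part was not tested.

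Of 16 genes of SREBP processing and the liver X receptors, 1 was called higher at day 3, where 1030 of all 18714 genes tested were called higher. At days 7 and 14, 0 were called, against 0.0160% on each day, and the median over the 3 days was 0.25, 0.04 and 0.17. Erlin1, a protein of the endoplasmic reticulum that restrains SREBP activation, measured 38.5, 22.0 and 45.4 CPM at SCI day 3, against 16.9, 17.8 and 15.1 CPM in sham (log2 fold change 1.09 ± 0.244, SE; edgeR adjusted p = 0.0384). It lay above every sham library on all 3 days. Nr1h3, a liver X receptor, measured 17.7, 15.5 and 36.5 CPM at SCI day 3, against 6.66, 12.9 and 7.34 CPM in sham, with no overlap (log2 fold change 1.37 ± 0.389, SE; edgeR adjusted p = 0.0560). At day 14, where Srebf1 lay above sham, Nr1h3 measured 11.4, 14.4 and 11.0 CPM and overlapped with sham.

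Per length, the 31 genes spanned a wide range in sham, and the cholesterol enzymes held both ends of it. Hmgcs1 averaged 292 ± 54.9 FPKM, Cyp51 159 ± 42.6, Msmo1 159 ± 28.2 and Acly 119.6 ± 0.539, while Hsd17b7 averaged 8.58 ± 1.30 FPKM (SD, n = 3 each). Cyp51 and Msmo1 did not differ beyond their spread. At SCI day 14 Hmgcs1 averaged 169 ± 108 FPKM and Cyp51 79.4 ± 43.7, and Srebf1 averaged 29.4 ± 6.50 FPKM, beside 34.7 ± 8.09 for Srebf2 (SD, n = 3 each), which do not differ beyond their spread. In sham the same genes averaged 19.7 ± 1.32 and 45.0 ± 2.79 FPKM.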

How the data were processed

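RNA sequencing of 12 libraries (total RNA, lumbar spinal cord) was read from 1 table that holds, per the file headers, a read count and an FPKM value for each gene and library. The counts were deposited by the authors as raw whole numbers and the FPKM as the authors' values per kilobase of gene and sequenced fragment total. The sources used here name no aligner or counter and do not state strand use or the treatment of reads with several matches. The submitters' processing notes list the mouse builds GRCm38 and mm10, while the table's gene IDs are those of rat. The table held 0 other columns of per-sample values.

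Counts were filtered with filterByExpr by group (18714 of 23526 genes kept), TMM-scaled and tested with edgeR 4.0.16 in R 4.3.3 by glmQLFit and glmQLFTest, with 1 mean for each of the 4 groups, all 12 libraries in the fit and 8 residual degrees of freedom. P-values were adjusted by Benjamini-Hochberg over all genes tested. The biological coefficient of variation was 0.432. The SE of a log2 fold change is its size divided by the square root of F. Levels are CPM of the TMM-scaled libraries, except that the CPM of cell type markers and their sums use library totals without TMM. Branch means and marker means use log2 CPM of the TMM-scaled libraries with a prior count of 2. The test was checked on simulated counts whose spread was set lower than that of these data. That check therefore does not give the error rate or power of the test here. Totals of 63010295 to 79072710 counts a library set the counting error, which is small beside the spread between libraries. No libraries were alike within counting error.

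The members and lists were chosen with earlier results of these data known, as were the promoter motifs. Genes were named by a rule: 12 fixed members, and for each day the 3 cholesterol enzymes, 2 fatty acid enzymes and 1 regulator with the smallest p. Other members were named as the highest or lowest of a branch or, after their values were seen, for their role in the pathway. Of the other pathway lists, genes that passed the test and some of those with the smallest p were named. The deviations of same-numbered libraries from their group means had 18 correlations between -0.34 and 0.25. With 3 libraries a group these cannot show whether the numbers pair the samples. DESeq2 1.42.0, limma voom (limma 3.58.1), other scalings and filters, a replicate block, the groups compared alone and each library left out were tried. Promoters are from RefSeq, build GRCr8.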

Additional observations from a re-analysis of the deposited data

Results flagged for a closer look

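Srebf1 was below the sham mean in all 3 SCI day 3 libraries and above it in all 3 SCI day 14 libraries. The log2 changes from sham differed by 1.36 at day 14 against day 3 (edgeR's quasi-likelihood test, adjusted p = 0.188), so the difference did not pass the test. Ebp was below the sham mean in all 3 SCI day 7 libraries and above it in all 3 SCI day 3 libraries. Its log2 changes differed by -0.44 at day 7 against day 3 (edgeR adjusted p = 0.363), which did not pass the test. Both genes share the sham libraries between the days compared.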

How the results depend on the processing

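At day 3 the number of the 31 genes called, 0 by edgeR, was 6 with DESeq2 and 6 with limma voom and sample weights, against 30.7% and 33.3% of all genes. It was 1 when only genes with 1 CPM throughout a group were tested, where the share of all genes called is not given here. It was 0 to 7 when a library was left out in turn. Without SCI day 3 replicate 2 it was 7, against 37.1% of all genes. In settings chosen after seeing the data, it was 12 without the 3 libraries high in sensory ganglion markers and 0 without the 2 day 3 libraries low in neuron markers. At days 7 and 14 it was 0 in every setting run. Between days it was 1 with DESeq2, where 6.68% of all genes were called, 0 to 1 when a library was left out, with 22.8% of all genes called where it was 1, and 10 without the 3 libraries high in sensory ganglion markers. Those 10 were 3 at day 7 against day 3 and 7 at day 14 against day 3, where 16.5% and 10.7% of all genes were called. With the replicate number as a block, 0 were called in each comparison, and whether the numbers pair the samples is not known. Leaving out a library in turn, a setting added after seeing the data for these counts, gave 14 to 21 genes below sham without overlap at day 3. It gave 26 to 28 at day 7 and 12 to 25 at day 14. The day 14 count was 25 without SCI day 14 replicate 1 and 19 without sham replicate 3, against 16.2% and 8.27% of all genes. With all libraries kept, 18.3%, 10.8% and 6.28% of all genes lay below sham without overlap on days 3, 7 and 14. The shares for the other libraries left out are not given here. The mean difference between branches, cholesterol minus fatty acid, ranged from -0.01 to 0.17 at day 3, -0.18 to -0.02 at day 7 and -0.28 to -0.15 at day 14 when a library was left out, and a median over genes gave -0.40 at day 14. For the 20 genes named by the rule, 1312 of 1320 alternative fold changes kept their sign. The 8 others belonged to Acaca, Acss2, Elovl6 and Fads1, none of them called. The causes of these differences were not tested.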

Other observations

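A gene entry with the symbol Rusc1 carries the description of farnesyl diphosphate synthase, the enzyme between the mevalonate arm and squalene. It was not counted among the 31 genes, since its symbol and description disagree. It measured 310.3, 319.8 and 311 CPM in sham, 168, 286 and 160.5 CPM at SCI day 3, 236, 226 and 221 CPM at day 7, and 292, 202 and 178 CPM at day 14. All 9 injured libraries lay below the 3 sham libraries. Its log2 fold change was -0.61, -0.46 and -0.49 on days 3, 7 and 14 (edgeR's quasi-likelihood test, adjusted p = 0.106, 0.582 and 0.706), so it did not pass the test on any day.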
